A study of Mus musculus with 2 samples.

Results

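The regions described here are the Tet3 peaks of mouse chromosome 7, 316 of the 3412 peaks in the Tet3 list and of the 3759 peaks in both deposited lists. They were selected by chromosome alone, as every row of the Tet3 list on chromosome 7. The chromosome was picked because its number and crowding of peaks were already known, so its counts, its density and the spacing that follows from them are descriptions without a test. Peak width and score took no part in the choice.

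The peaks come from chromatin immunoprecipitation followed by sequencing (ChIP-seq) in neural progenitor cells made from embryonic stem cells, strain background C57BL/6. The study has 2 libraries. In one, chromatin was precipitated with an anti-Tet3 antibody. The other, Input, is DNA of the same cell type that received no antibody. Each group is 1 library, so nothing below has a replicate check, and intervals cover counting error over peaks only. They treat peaks as independent, although many lay close together, so they can be too narrow. No genotype or treatment is given in the labels, and the lists hold no expression values with which the identity of the progenitors could be checked.

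Tet3 is a TET dioxygenase, an enzyme that oxidises 5-methylcytosine in DNA to 5-hydroxymethylcytosine and further products, a step on a route by which methylation is lost. It is the family member best known from the oocyte and zygote, and it is also prominent in neural tissue. Mouse chromosome 7 carries several imprinted domains, in which a gene is expressed from the maternal or the paternal copy, as well as large arrays of odorant receptor genes. The peaks were not assigned to genes, because an mm9 annotation was not used here, and no sequence is shown for the same reason.

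Chromosome 7 held 9.26% of the Tet3 list (exact binomial 95% interval 8.31 to 10.3). Its peaks ran from 4459656 to 152015476 on mm9. With 2.14 peaks per Mb (Poisson 95% interval 1.91 to 2.39) it had the highest density among the 18 autosomes other than chromosome 8, which is left out of the comparisons because its Input count stands apart. Chromosome 8 itself exceeded chromosome 7, with 345 peaks, 2.71 per Mb, a fullest 5 Mb window of 46, a median gap of 132 kb between neighbouring peaks and a variance of 5 Mb counts of 9.42 times their mean. All ranks below are among the 18 autosomes without it. The other 17 autosomes ranged from 0.919 on chromosome 13 to 2.06 on chromosome 19, with a median of 1.35, and the intervals of chromosomes 7 and 19 overlapped. Relative to the pooled rate of those 17, chromosome 7 had 1.64 times the number of peaks. The peaks covered 273 kb, or 1849 bp per Mb, against 726 to 1773 bp per Mb on the reference autosomes.

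Input gave a different order. It had 12 peaks on chromosome 7, 3.46% of its list (exact binomial 95% interval 1.80 to 5.96), and ranked 11 of 18 by number. That was 0.802 times the number that the pooled Input rate of the 17 autosomes gives (Poisson 95% interval 0.414 to 1.40), so neither an excess nor a deficit of Input peaks was resolved. For each Input peak chromosome 7 carried 26.3 Tet3 peaks, and the 17 autosomes together carried 12.8. The 12 Input peaks make the first of these ratios imprecise, with an exact interval of 14.9 to 51.5.

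**Figure D1:**
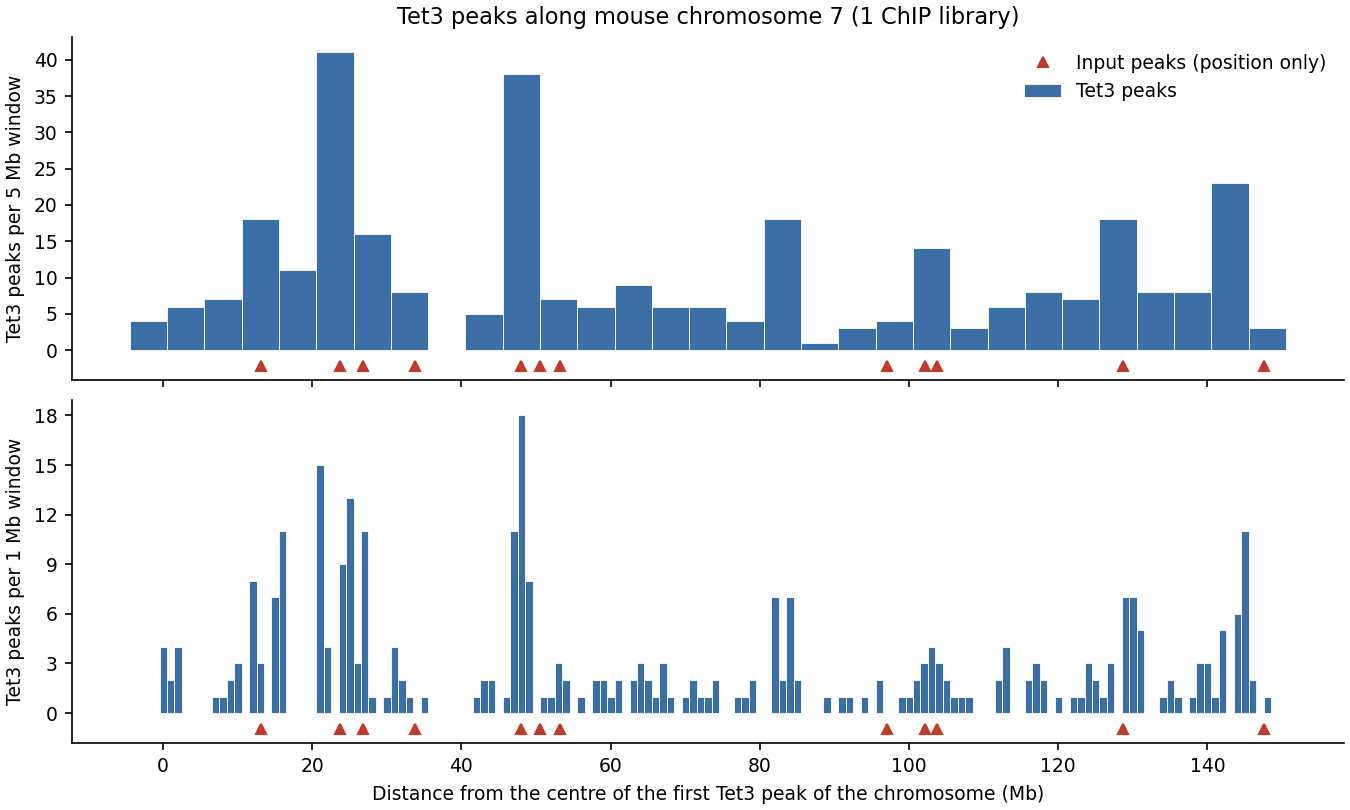
Number of Tet3 peaks on chromosome 7 in fixed windows of 5 Mb (upper panel) and 1 Mb (lower panel), against distance from the centre of the first Tet3 peak in Mb; red triangles mark the positions of the 12 Input peaks and have no height. A pair of 5 Mb windows with 41 and 38 Tet3 peaks stands above the rest, the next holding 23, and 1 window holds none.

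When the span of 147.6 Mb was cut into 3 equal parts, the first, up to 53.7 Mb, held 154 peaks (3.13 per Mb), the middle part held 62 (1.26 per Mb) and the distal part held 100 (2.03 per Mb). The middle part was the sparsest. All 79 peaks of the windows at 25 to 30 and 50 to 55 Mb, described next, fell in the first part. Outside these windows, and so over a shorter length, the first part held 75 peaks, more than the middle part and fewer than the distal part. The distal part, however, kept its own fullest windows, at 145 to 150 Mb with 23 peaks and at 130 to 135 Mb with 18. These counts are therefore not on equal terms, and they do not rank the first and distal parts apart from their dense windows. Input peaks numbered 5, 3 and 4 in the same parts, too few to show a trend.

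In 5 Mb windows counted from the start of the chromosome, the window from 25 to 30 Mb held 41 Tet3 peaks and that from 50 to 55 Mb held 38, together 25% of the chromosome's peaks (exact binomial 95% interval 20.3 to 30.2). Both windows were already known as dense when the chromosome was chosen. The next was 145 to 150 Mb, near the distal end, with 23 peaks. The windows at 15 to 20, 85 to 90 and 130 to 135 Mb followed with 18 each. In all, 9 of the 31 windows had 10 or more peaks and held 197 of the 316, while the median window held 7. On the 17 reference autosomes the median was 5 and 82 of 444 windows, 18.5%, had 10 or more, against 29.0% on chromosome 7.

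The order of dense windows depended on where windows begin. On the fixed grid no reference window held more than 36 peaks. When a 5 Mb window could start at any peak, the fullest on chromosome 7 ran from 25117857 to 30117551 with 42 peaks, whereas chromosome 10 had 62 peaks between 75837156 and 80834957, a stretch that the fixed grid divides into windows of 35 and 35. Chromosome 4 then had 39, chromosome 19 had 37, and the remaining reference autosomes 14 to 31. Chromosome 7 therefore ranked second, not first, without the grid.

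At 1 Mb resolution the fullest window was 52 to 53 Mb with 18 Tet3 peaks. It was followed by 25 to 26 Mb with 15 and 29 to 30 Mb with 13. The windows at 20 to 21, 31 to 32, 51 to 52 and 149 to 150 Mb held 11 each, 28 to 29 Mb held 9, and 16 to 17 and 53 to 54 Mb held 8 each. Of these 10 windows, 8 lay between 20 and 54 Mb. The 7 windows with 10 or more peaks made up 4.70% of the 149 windows and contained 28.5% of the peaks. On the reference autosomes only 8 of 2118 windows, 0.378%, reached 10, and the fullest held 28, on chromosome 10.

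Unevenness was also measured over all windows at once. The 17 fullest 1 Mb windows, 11.4% of the chromosome's windows, were enough to hold 50% of its Tet3 peaks. The corresponding share ranged from 8.06% on chromosome 10 to 18.6% on chromosome 19, with a median of 15.9%. The variance of the 5 Mb counts was 8.97 times their mean on chromosome 7, second to 11.8 on chromosome 10, with a median of 4.23 over the 17 autosomes. Without its 2 fullest 5 Mb windows chromosome 7 had a ratio of 3.94, and on a grid shifted by 2.5 Mb one of 6.53. Neither value was computed for the other autosomes. This ratio grows with the number of peaks at equal unevenness, and chromosome 7 had the most peaks of the 18 autosomes compared.

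The excess in number was not limited to the dense pair. Outside 25 to 30 and 50 to 55 Mb, chromosome 7 still carried 237 peaks over 137.6 Mb, or 1.72 per Mb. With the 2 fullest 5 Mb windows of every autosome taken out in the same way, a comparison added after the counts were seen, the reference autosomes ranged from 0.802 to 1.64 per Mb and chromosome 7 had 1.58 times their pooled rate.

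**Figure D2:**
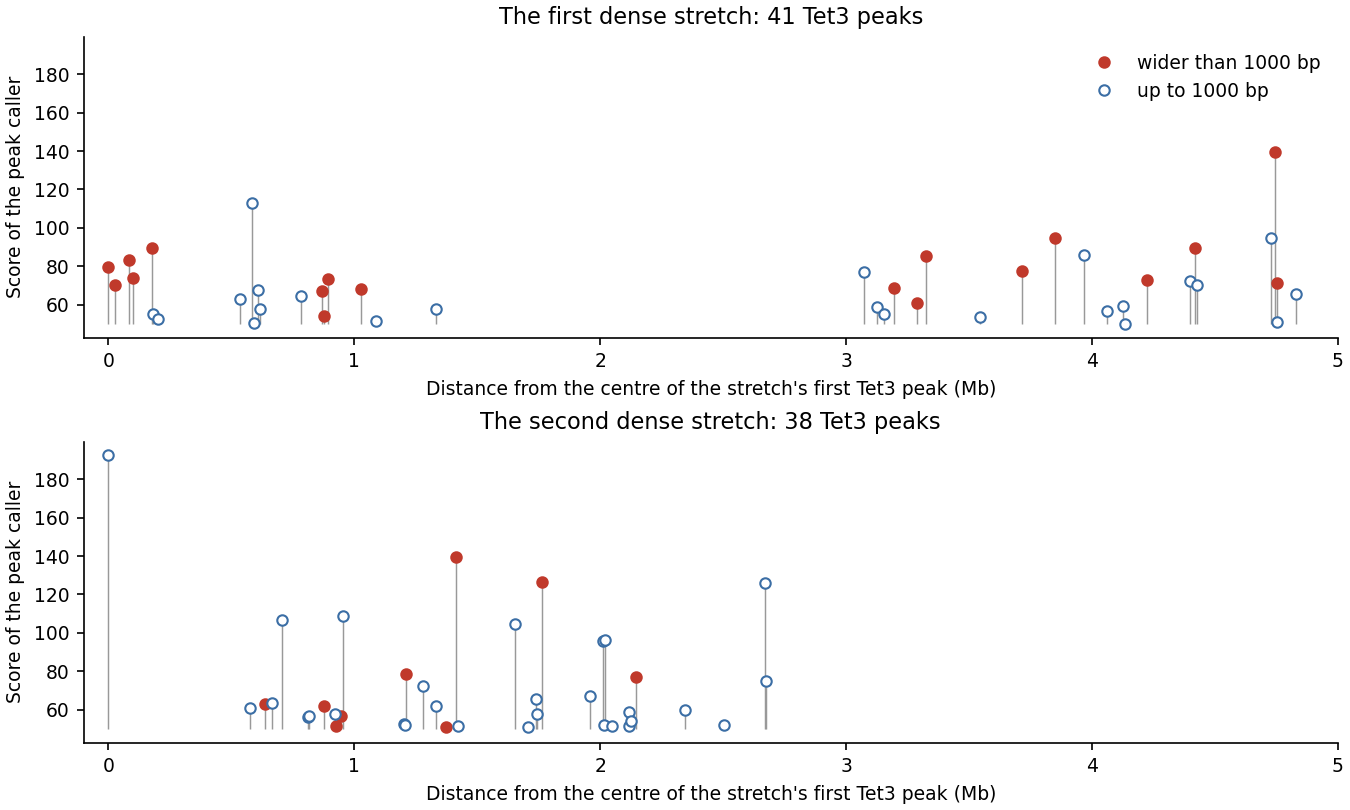
Each Tet3 peak of the windows at 25 to 30 Mb (upper panel) and 50 to 55 Mb (lower panel) of chromosome 7 as a point, with the peak caller's score against the distance in Mb from the first peak of the window; filled points are wider than 1000 bp, and vertical lines start at a score of 50. The upper window has 41 peaks in separate groups around an empty stretch of 1737 kb, and the lower has 38 peaks within 2.67 Mb.

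The dense stretch at 25 to 30 Mb was itself discontinuous. Its first 19 peaks, from 25117857 to 26452932, were separated by 1737 kb without a peak from the remaining 22, which began at 28189785. Peaks continued past the end of the window, up to 32157946, so that 56 peaks lay in 7.04 Mb between stretches of 4674 and 2737 kb without any. Within the window the median gap between neighbouring peaks, measured from edge to edge, was 53.4 kb (order-statistic 95% interval 19.1 to 92.1). Of the first 5 peaks, all were wider than 1000 bp. These, between 25117857 and 25298223, were 1546, 1291, 1356, 1443 and 1770 bp wide, with scores of 79.6, 70.38, 83.38, 74.0 and 89.58. The next 2, up to 25319865, were 519 and 567 bp wide.

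The stretch at 50 to 55 Mb was more compact. A single peak at 50930990 to 50931925, 936 bp wide and scoring 192.29, stood 577 kb ahead of the others. The other 37 lay between 51508710 and 53605226, within 2.10 Mb, and were followed by 2282 kb without a peak. The median gap in the window was 39.2 kb (order-statistic 95% interval 18.5 to 53.4). The fullest free 1 Mb window of the chromosome lay here, from 52134757 to 53076448, with 22 peaks. Only chromosome 10, with 30, exceeded it among the reference autosomes, and the others had at most 14.

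The make-up of the peaks was compared between the dense windows. At 25 to 30 Mb, widths over 1000 bp were found in 18 of 41 peaks, 43.9% (28.5 to 60.3, exact binomial 95% limits), and scores above 100 in 2. At 50 to 55 Mb, widths over 1000 bp were found in 9 of 38, 23.7% (11.4 to 40.2), and scores above 100 in 7. Shares of high scores were 4.88% (0.596 to 16.5) and 18.4% (7.74 to 34.3). Median widths were 898 bp (765 to 1138) and 806.5 bp (641 to 918). All these intervals overlapped, so no difference in make-up was resolved at these numbers.

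As a pair, the dense windows had a higher median width than the rest of the chromosome, while the intervals of their median scores overlapped. The median width was 849 bp (order-statistic 95% interval 790 to 936) inside and 717 bp (675 to 783) outside, a difference of 132 bp, and these intervals did not overlap. Taken singly, both windows had intervals that overlapped the one outside, 765 to 1138 bp at 25 to 30 Mb and 641 to 918 bp at 50 to 55 Mb. The windows were picked for their counts and width was not used, but peaks of 1 library are not replicates and no test is given. The share wider than 1000 bp was 34.2% (exact binomial 95% interval 23.9 to 45.7) inside and 27.0% (21.5 to 33.1) outside, with overlapping intervals. By window it was 43.9% at 25 to 30 Mb and 23.7%, below that outside, at 50 to 55 Mb. Median scores were 64.6 (59.5 to 70.6) and 67.2 (64.4 to 70.97). When the 316 peaks were ordered by score into 4 groups of 79, the dense pair held 22, 20, 20 and 17 of them from the lowest to the highest scores.

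Other crowded windows of the reference autosomes had similar peaks. The window at 150 to 155 Mb on chromosome 4 held 36 peaks with a median width of 749 bp (order-statistic 95% interval 679 to 1149). The adjoining windows at 75 to 80 and 80 to 85 Mb on chromosome 10 had medians of 702 bp (624 to 837) and 804 bp (726 to 869). Over the 10 fullest reference windows, medians ran from 702 to 928 bp, which contains both values from chromosome 7. Their median scores ran from 59.1 to 72.9, against 68.2 at 25 to 30 Mb and 61.4 at 50 to 55 Mb.

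The longest gap between neighbouring Tet3 peaks ran from 39006635 to 46558959, a length of 7.55 Mb, and it contained the only 5 Mb window without a Tet3 peak, 40 to 45 Mb. The next gaps were from 20443923 to 25117856 (4.67 Mb), 6591086 to 11056059 (4.46 Mb), 89921045 to 93765919 (3.84 Mb) and 112910836 to 116093573 (3.18 Mb). None of these 5 gaps held an Input peak either. Together they made up 23.7 Mb, or 16.1% of the span. The window at 90 to 95 Mb was the only other one with 2 or fewer peaks, and its single peak lay at 93765920 to 93766416 with a score of 75.

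A long empty stretch and a dense one met at 25 Mb. The gap of 4.67 Mb ended at the first peak of the dense stretch at 25 Mb, and it began just after a group of 11 peaks between 19955544 and 20282871 and 3 more between 20394624 and 20443922. The gap of 7.55 Mb lay between the dense pair but touched neither window. Beyond it came 5 peaks from 46558960 to 48924467, and none of them was wider than 764 bp or scored above 58.83.

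In absolute length, empty stretches of this size were not unusual. The longest gap on the reference autosomes ranged from 3.51 Mb on chromosome 11 to 9.14 Mb on chromosome 10, with a median of 7.17, and chromosome 7 ranked 7 of 18. The mean gap of chromosome 7, 468 kb, was the shortest of the 18, against 488 to 1098 kb on the others. The autosomes with a longer longest gap, of at most 9.14 Mb, all had mean gaps of 648 kb (chromosome 4) or more. Relative to the mean gap, the longest gap of chromosome 7 was therefore the largest of the 18. Of the 149 windows of 1 Mb, 50 had no Tet3 peak, 33.6% (exact binomial 95% interval 26.0 to 41.7), against 865 of 2118, 40.8% (38.7 to 43.0), on the reference autosomes. More peaks leave fewer windows empty, yet chromosome 7, the densest, ranked 14 of 18 from the highest share. Chromosomes 19 (22.0%), 5 (29.1%), 11 (29.4%) and 17 (32.6%) had lower shares at a lower density. The longest run of empty 1 Mb windows was the 6 from 40 Mb on, followed by runs of 4 from 7 Mb and from 21 Mb. On chromosome 7 the 48 gaps over 1 Mb took up 64.7% of the span, compared with 56.2 to 81.5% elsewhere.

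**Figure D3:**
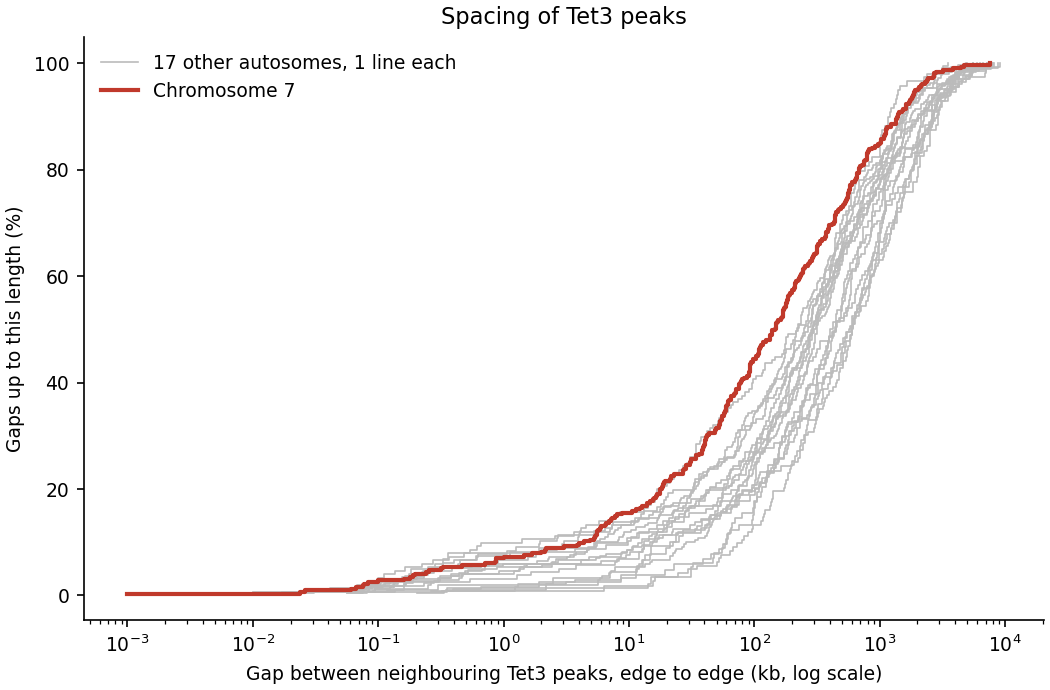
Cumulative share of the gaps between neighbouring Tet3 peaks (vertical axis, %) up to a given edge-to-edge length (horizontal axis, kb, log scale), in red for the 315 gaps of chromosome 7 and in grey for each of the 17 reference autosomes. At 100 kb the red line has passed 44.4% of the gaps, and its median of 147 kb lies to the left of the medians of all grey lines (221 to 606 kb).

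Neighbouring Tet3 peaks on chromosome 7 were a median of 147 kb apart (order-statistic 95% interval 98.0 to 185), with quartiles of 31.1 and 561 kb. The medians of the reference autosomes ran from 221 kb on chromosome 4 to 606 kb on chromosome 16. A higher density shortens gaps by itself, so the median was also set against the mean gap of the same chromosome. The ratio was 0.314 on chromosome 7, next to the lowest, 0.303 on chromosome 10, and the median over the 17 autosomes was 0.488. Without the gaps inside the dense pair, the median gap of chromosome 7 was 237 kb, and no such value was computed for the reference autosomes.

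By length, 22 of the 315 gaps, 6.98%, were up to 1 kb, 27 or 8.57% were over 1 and up to 10 kb, and 91 or 28.9% were over 10 and up to 100 kb. The pooled reference autosomes had 4.67, 4.12 and 17.4% of their 2719 gaps in these classes. At the long end, 15.2% of the gaps on chromosome 7 and 24.8% of those on the reference autosomes exceeded 1 Mb.

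Peaks with another peak within 10 kb numbered 91, or 28.8% (exact binomial 95% interval 23.9 to 34.1), in 35 pairs and 7 groups of 3. No larger group was formed at that distance. The share was 15.9% (14.5 to 17.3) over the pooled reference autosomes and ranged from 2.78% on chromosome 3 to 27.1% (20.5 to 34.5) on chromosome 10. Chromosome 19, the next in density, had 6.67% (2.92 to 12.7). How far the shares follow density was not tested. Of the 91 peaks, 36 lay in the dense pair, where 45.6% of peaks had such a neighbour, against 23.2% (17.99 to 29.1) in the rest of chromosome 7.

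Among the groups of 3, the one with the highest-scoring member lay at 29862309 to 29872246, inside the first dense stretch, with scores from 51.32 to 139.66. The next, by the same order, lay at 52942149 to 52950433 in the second dense stretch, with scores from 52.3 to 96.55, and the third at 149660953 to 149671481, with 54.06 to 96.06. They were 9.94, 8.29 and 10.5 kb long, and none contained an Input peak. The closest pair on the chromosome was called 1 bp apart, between 31366498 and 31369010, with scores of 78.33 and 77.2. Such pairs count as separate peaks here as in the deposited list, and whether a different caller setting would join them was not tested.

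When peaks up to 100 kb apart were joined, a distance chosen after the gaps were seen, 199 of the 316, 63.0%, fell into 59 groups. The largest held 11 peaks over 327 kb, from 19955544 to 20282871, outside the dense pair, with scores from 52.01 to 111.24 and a median of 81.8. Groups of 9 and 8 followed at 52888193 to 53076448 and 52134757 to 52354375. Another group of 8 lay near the distal end, at 149533672 to 149671481, over 138 kb.

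Peaks with a neighbour within 10 kb resembled the single ones. Their median width was 814 bp (order-statistic 95% interval 691 to 851), against 737 bp (680 to 822) for the other 225. Median scores were 67.6 (59.5 to 73.2) and 66.2 (63.7 to 69.2). By coincidence 91 peaks were wider than 1000 bp and 91 had a neighbour within 10 kb, and 26 peaks belonged to both sets. That is 28.6% of each set, beside 28.8% of all 316 peaks for either property.

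**Figure D4:**
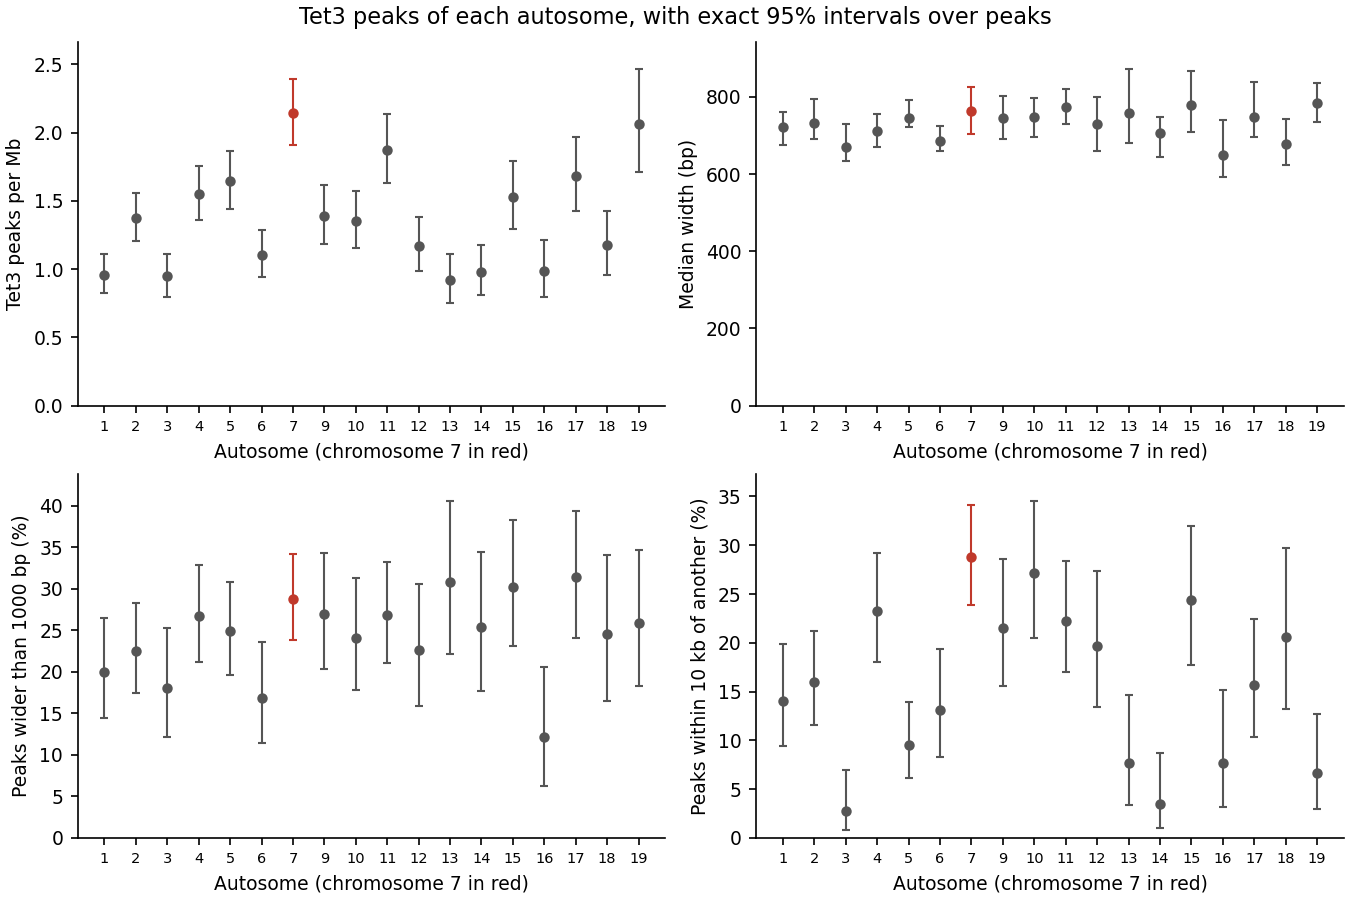
Tet3 peaks per Mb, median width in bp, percentage wider than 1000 bp and percentage within 10 kb of another peak, for each autosome other than chromosome 8, with points for the values and bars for exact 95% intervals over peaks; chromosome 7 is red. Chromosome 7 is highest for density (2.14 per Mb) and for close neighbours (28.8%), and in the upper part of the range for both width measures.

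In width, chromosome 7 was within the range of the other autosomes. The median was 764.5 bp (order-statistic 95% interval 703 to 826), with quartiles of 589.5 and 1070 bp, and the widths ran from 265 to 3312 bp. The reference autosomes had medians from 649 bp on chromosome 16 to 784 bp on chromosome 19, and chromosome 7 ranked 4 of 18. Pooled, they gave 730 bp (720 to 741), inside the interval of chromosome 7. Widths over 1000 bp were found in 91 peaks, 28.8% (23.9 to 34.1, exact binomial 95% limits), and in 24.3% (22.7 to 26.0) of the pooled reference peaks. A further limit of 1500 bp was passed by 20, or 6.33%, against 5.63% of the pooled reference peaks. Median widths were 820 bp (728 to 896), 666.5 bp (626 to 783) and 754.5 bp (693 to 840) in the proximal, middle and distal parts of the chromosome, with overlapping intervals. The Input peaks were narrower than the Tet3 peaks as a whole, between 437 and 736 bp with a median of 606 bp (554 to 661). Their interval overlapped that of the 79 lowest-scoring Tet3 peaks, which had a median of 628 bp (585 to 676).

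Scores were likewise within the common range. A score is the authors' value from the peak caller and is used here only to order peaks within the Tet3 list. The median on chromosome 7 was 67.0 (order-statistic 95% interval 64.4 to 69.2), and the pooled reference gave 64.5 (64.0 to 65.7). The medians of single autosomes ran from 61.9 to 69.8, and chromosome 7 ranked 4 of 18 again. Scores above 100 were reached by 42 peaks, 13.3%, against 12.9% of the reference peaks.

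**Figure D5:**
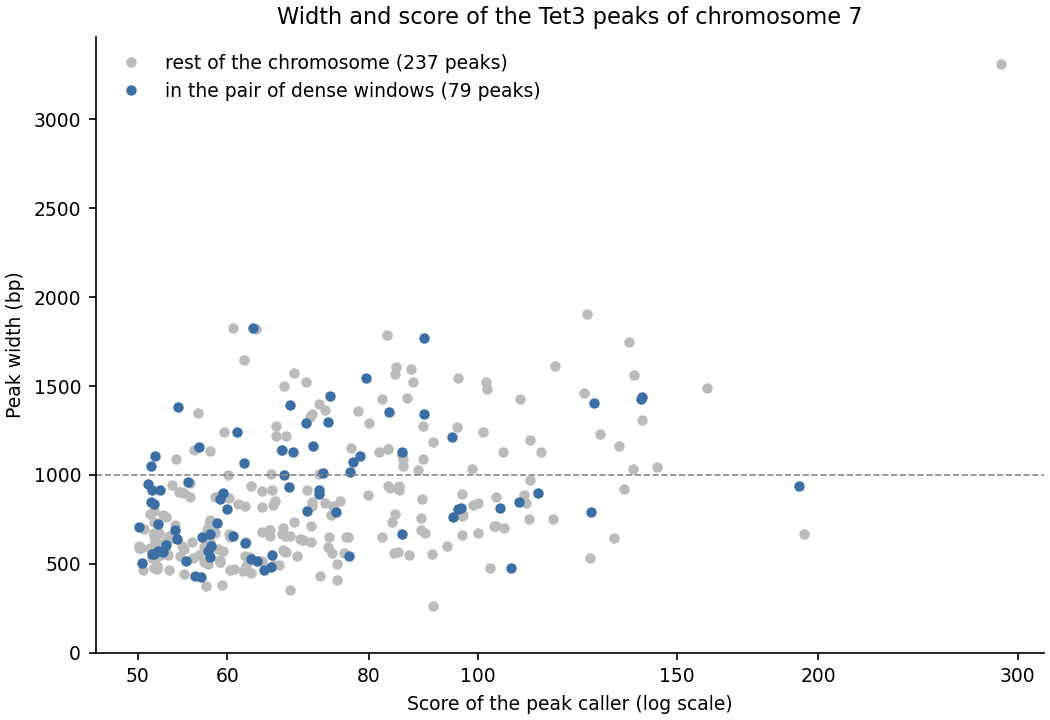
Width in bp against the peak caller's score (log scale) for the 316 Tet3 peaks of chromosome 7; blue points are the 79 peaks of the windows at 25 to 30 and 50 to 55 Mb, grey points the other 237, and the dashed line marks 1000 bp. Peaks wider than 1000 bp occur in every score group but make up more of the higher-scoring ones, and 1 peak of 3312 bp with a score of 289.85 stands apart.

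Wider peaks tended to have higher scores. From the lowest-scoring to the highest-scoring 79 peaks, median widths were 628, 659, 893 and 973 bp, and 8.86, 16.5, 40.5 and 49.4% of the peaks were wider than 1000 bp. The step came between the second group, with scores up to 66.9, and the third, with scores from 67.09. The Spearman correlation of width and score was 0.44 across the 316 peaks of this 1 library, within the 0.39 to 0.60 of the reference autosomes. The caller derives both values from the same reads.

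The highest-scoring and widest peak of chromosome 7 was found at 16865360 to 16868671. It scored 289.85 over 3312 bp and was the fifth by score in the whole Tet3 list. Its neighbour on the proximal side, 79.3 kb away at 16784553 to 16786041, was the fourth on the chromosome, with a score of 159.46 and a width of 1489 bp. After these came no peak for 150 kb. The second-ranked peak, at 31430084 to 31430751, had a score of 194 in only 668 bp, and another peak lay 0.709 kb before it. The third was the isolated peak at the head of the second dense stretch, described above, with 192.29.

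The remaining peaks among the 10 highest scores were close in value. They lay at 68067727 to 68068771 (score 143.9), 68679642 to 68680952 (139.68), 29862309 to 29863747 (139.66), 52343208 to 52344632 (139.29), 134890973 to 134892533 (137.23) and 30116519 to 30117551 (137.05). All 6 were wider than 1000 bp, from 1033 to 1561 bp. The first 2 of these stood in the sparse middle of the chromosome, where the window from 65 to 70 Mb held 9 peaks in all. Altogether 3 of the 10 highest scores were in the dense pair, which held 25% of all peaks.

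The next widest peaks were not among the high scores, apart from one. That one, at 139159731 to 139161633, was 1903 bp wide with a score of 124.8. Those at 107997940 to 107999765, 51567579 to 51569403 and 35987159 to 35988979 were 1826, 1825 and 1821 bp wide and had scores of 60.73, 63.17 and 63.67, below the chromosome's median.

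The 12 Input peaks of chromosome 7 were spread over 10 of the 31 windows of 5 Mb, with at most 2 in a window, and no Tet3 peak overlapped one. A count of 0 allows up to 0.949% of the 316 peaks if they are taken as independent. With 12 Input peaks, few overlaps were possible in any case. If Input was the control for the Tet3 call, which is not given in the sources used here, overlap would be low by construction. In the dense pair there were 3 Input peaks, 25% of the 12 (exact binomial 95% interval 5.49 to 57.2), at 28231783 to 28232351, 52513698 to 52514254 and 54977379 to 54978114. They scored 50.8, 50.8 and 55.6. The last lay in the part of its window that had no Tet3 peak, 909 kb from the nearest.

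Distances from an Input peak to the nearest Tet3 peak ran from 11.99 to 909 kb, with a median of 62.3 kb. The closest was the one at 28231783, and the next closest, at 16.5 kb, was at 106602448 to 106603091 (score 59.39). Input peaks at 17626581 to 17627258, 31260285 to 31260945, 108191823 to 108192442, 133171215 to 133171651 and 152071557 to 152072203 lay between 43.9 and 85.7 kb from a Tet3 peak. The top Input score on the chromosome, 67.53, belonged to the one at 108191823. The remaining 3, at 38188643 to 38189171, 57706412 to 57707003 and 101543730 to 101544283, were 816, 335 and 651 kb away. How far Input peaks mark regions where the Tet3 call was affected cannot be read from 12 peaks.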

How the data were processed

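ChIP-seq of Tet3 and of Input DNA was compared, with 1 library in each group, so no test between groups was possible. Per the submitters' processing notes, the tools were Bowtie, a short-read aligner, and MACS, a peak caller, and the build was mm9. The sources used here give no versions, filters, thresholds or control. Each deposited list gives positions (bp) and a score per peak, the authors' own value, which no header defines. Its lowest value is 50 in the Tet3 list and 50.01 in the Input list. Read depth is unknown.

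Summaries used pandas 2.3.3, numpy 2.4.6 and scipy 1.17.1 under Python 3.11.15, and figures used matplotlib 3.10.9. Starts are counted from 1. Peaks entered windows by midpoint, on a grid from position 0, from the first to the last window with a peak of either list. Densities are per Mb between the outermost peaks, Input included, since mm9 chromosome lengths were not used. The reference was the 17 autosomes other than 7 and 8. Intervals are 95%: Clopper-Pearson, Poisson or order statistics, and a count of 0 is given a limit of 3 counts. For the variance over the mean a chi-square interval was used, which assumes normally distributed window counts. The functions were tested on simulated lists. The members, the named windows and the alternatives were chosen with earlier results of these data known. Named regions are the 10 highest-scoring and 5 widest peaks, all Input peaks, the fullest and emptiest windows, the 5 longest gaps and 3 clusters joined within 10 kb, those with most peaks, ties going to the highest score; the opening peaks of the dense stretches, the closest pair, the free windows and the groups joined at 100 kb were added after their values were seen. Alternatives were higher score thresholds, other grids, distances and references, and leaving out dense windows.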

Additional observations from a re-analysis of the deposited data

How the results depend on the processing

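Of 43 alternative values for 13 results, 20 stayed within the 95% interval of the reported value. Among these, the variance over the mean went from 8.97 to 6.53 with the grid shifted by 2.5 Mb, inside a wide interval of 5.73 to 16.0. The share of the list on chromosome 7, its density ratio (1.55 to 1.83) and the share in the dense pair stayed within theirs under every alternative run for them. Tet3 peaks per Input peak went from 26.3 to 28.7 in the higher-scoring 50%, with 6 Input peaks left, and to 51 at a score of at least 60, with 4 left, a near doubling that stayed inside its wide interval. Fewer peaks widen gaps and empty windows by construction. Keeping the higher scores likewise raises the median score, and with it both width measures, since width rose with score among these peaks. In the higher-scoring 50% of each list (172 peaks on chromosome 7), empty 1 Mb windows were 51.0%, the variance over the mean 5.24, the median width 916 bp, the share wider than 1000 bp 43.6%, the median score 83.7, the median gap 299.7 kb, the share within 10 kb 18.6%, the longest gap 11.9 Mb and the width difference of the dense pair 135 bp. At a score of at least 60, added after seeing the data, 204 peaks gave 47.0%, 873 bp, 40.2%, a median score of 77.1, 225 kb, 18.6%, 11.9 Mb and 121.5 bp for the same measures other than the variance over the mean. Under both thresholds chromosome 7 kept the highest density and the shortest median gap of the 18 autosomes, and was second by the share within 10 kb. Its variance over the mean, second with all peaks, became the highest by a small margin under both. It was 5.24 against 5.19 on chromosome 10 in the higher-scoring 50%, and 5.80 against 5.70 at a score of at least 60. Counting joined peaks as 1 gave a median gap of 208 kb. Neighbour distances of 5 and 50 kb gave shares of 20.6 and 48.4%. Without its 2 densest 5 Mb windows, also added, chromosome 7 had a share within 10 kb of 23.2%, a median gap of 237 kb and a variance over the mean of 3.94. These values were computed for chromosome 7 only. No interval was computed for the longest gap and the width difference, so any change counted as a move. No paired analysis was possible because only 1 library stands in each group.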
